A study of Mus musculus with 9 samples.

Results

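The genes of corticosteroid and thyroid hormone handling were read in the postnatal mouse cerebellum and in medulloblastoma, a cerebellar tumour. The 10 genes were taken as a named list, Hsd11b1, Hsd11b2, Nr3c1, Nr3c2, Fkbp5, Sgk1, Thra, Thrb, Dio2 and Klf9, and each was represented by a probe set annotated to that gene alone. All 10 had 1 such probe set, among 19938 genes with one, and all 10 passed the filter on dim genes that left 16323 genes for testing.

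Total RNA was taken at postnatal day 13 from 3 groups of 3 samples: cerebellum labelled SufuKO, medulloblastoma labelled Ptch1KO, and wildtype cerebellum. Each sample was hybridised to 1 Affymetrix Mouse Gene 1.0 ST array, and values are the deposited log2 values. The labels name neither strain, allele nor Cre driver, and do not say whether a sample was 1 animal. The p-values therefore reflect the spread among these 9 samples, which may be partly technical. In the Ptch1KO group genotype and tumour tissue cannot be told apart.

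Array medians lay between 6.72 and 6.79, and the number of arrays limits the precision. Sufu was 1.86-fold lower in SufuKO than in wildtype (limma adjusted p = 9.70e-06). Ptch1 RNA was 2.03-fold higher in Ptch1KO (adjusted p = 3.69e-07), and since the deleted part is not given this does not check the label. High Xist, the RNA of the inactive X chromosome of females, was seen on 1 SufuKO array (replicate 3), 1 Ptch1KO array (replicate 2) and all 3 wildtype arrays, so sex differed between the mutant groups and wildtype. Ptch1KO replicate 3 lay apart from the other tumour arrays, towards wildtype: over all tested genes its correlation with wildtype arrays averaged 0.943, where replicates 1 and 2 averaged 0.915 and 0.918. Of 10 cerebellar genes, 3 were higher, 5 lower and 2 did not pass in Ptch1KO against wildtype, and 3 were higher, 3 lower and 4 did not pass in SufuKO against wildtype. The lower ones in Ptch1KO were Gabra6 (4.51-fold), Cbln1 (2.57-fold), Eomes (2.14-fold), En2 (2.02-fold) and Zic2 (1.26-fold), and the higher ones Barhl1 (3.13-fold), Zic4 (1.54-fold) and Pax6 (1.34-fold). Gabra6 and Cbln1 are also among the mature granule neuron markers read below, and Barhl1 among the granule neuron progenitor markers. The cerebellar list is therefore not independent of those lists. Its counts stand beside 22.1% of all tested genes higher and 24.7% lower in Ptch1KO, and 13% and 12.4% in SufuKO. Zic1 and Neurod1, which did not pass in any comparison, had group means from 12.02 to 12.17 and from 11.96 to 12.14.

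Corticosterone, the main glucocorticoid of mice, acts through the glucocorticoid receptor (Nr3c1) and the mineralocorticoid receptor (Nr3c2). A pair of enzymes sets how much of it a cell sees: Hsd11b1 regenerates the active steroid and Hsd11b2 inactivates it. In the developing cerebellum glucocorticoids restrain the division of granule neuron progenitors, and Hedgehog signalling is known to raise Hsd11b2 in those cells. Thyroid hormone is activated by the deiodinase Dio2 and read by the receptors Thra and Thrb, and it drives granule neuron migration and the growth of Purkinje cell dendrites. Klf9, a zinc finger transcription factor, is induced by both hormones.

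The genes moved in both directions, and more of them in the tumours than in SufuKO cerebellum. In Ptch1KO against wildtype 3 of the 10 were higher (Hsd11b2, Fkbp5 and Nr3c2) and 6 lower (Hsd11b1, Dio2, Sgk1, Thrb, Klf9 and Nr3c1), at a limma adjusted p below 0.05. Over all genes tested, 22.1% were called higher and 24.7% lower in that comparison. In SufuKO against wildtype 2 were higher (Fkbp5 and Thra) and 3 lower (Dio2, Nr3c1 and Hsd11b1), beside 13% and 12.4% of all genes. With sex as a covariate 2 of these 5 calls remained, Fkbp5 and Dio2. All 3 wildtype arrays had high Xist, so that fit takes its sex term from the mutant arrays alone. The Thra difference was 0.23 without the covariate and 0.21 with it. A call lost in that fit is therefore not read as an effect of sex. In Ptch1KO against SufuKO 3 were higher (Hsd11b2, Nr3c2 and Fkbp5) and 6 lower (Hsd11b1, Sgk1, Thrb, Dio2, Klf9 and Thra), beside 12.2% and 17.5% of all genes. The median log2 difference of the 10 was -0.13 in SufuKO against wildtype, -0.38 in Ptch1KO against wildtype and -0.34 between the mutants, and that of all tested genes was -0.006, -0.013 and -0.008. The comparisons with wildtype share its 3 arrays, and those with Ptch1KO share the tumour arrays.

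**Figure D1:**
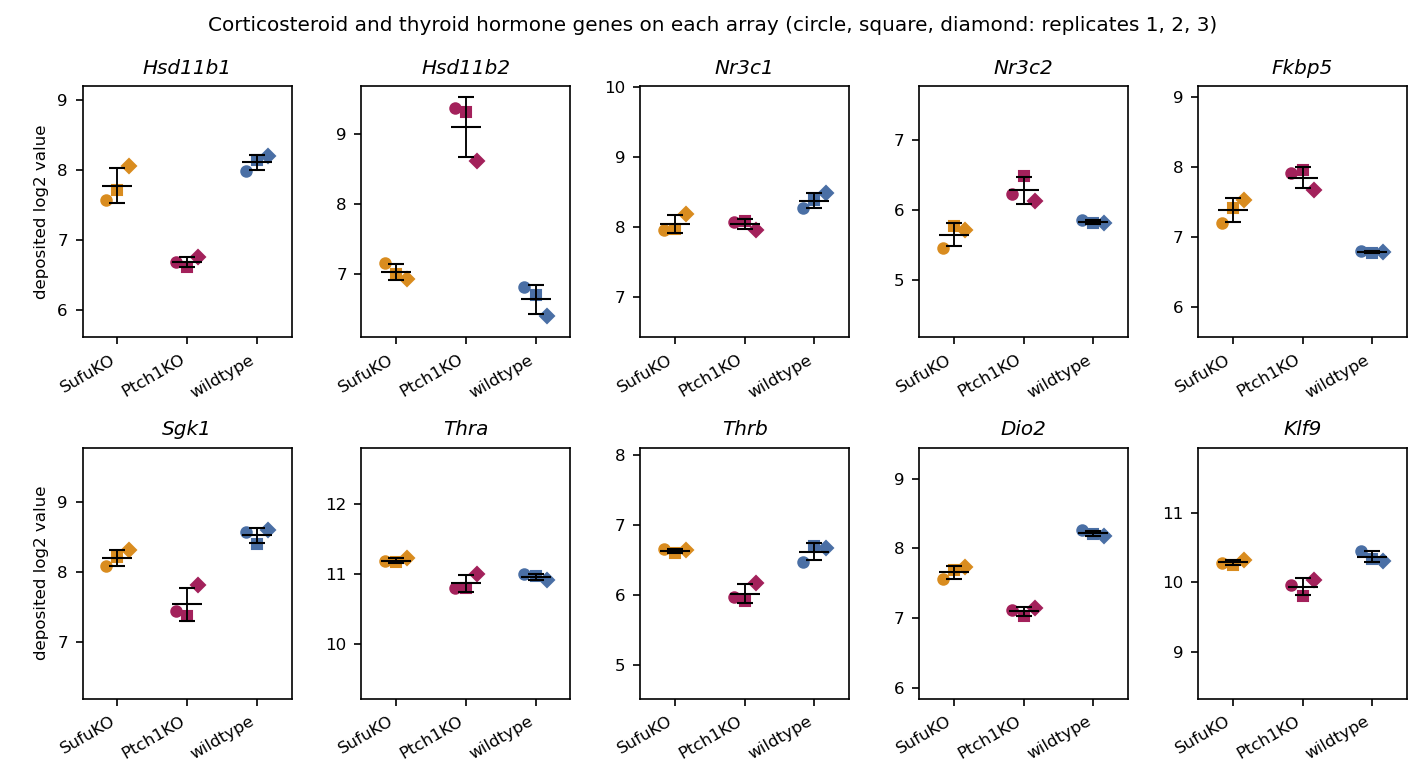
Deposited log2 values (vertical axes, each spanning the same number of log2 units) of the 10 genes on every array of the SufuKO, Ptch1KO and wildtype groups; bars are the mean and SD of 3 arrays. Hsd11b2 stood between 8.61 and 9.38 in Ptch1KO and at 6.80 or below in wildtype, while Hsd11b1 stood at 6.76 or below in Ptch1KO and at 7.99 or above in wildtype.

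Hsd11b2, the enzyme that inactivates corticosterone, showed the widest range of the 10. Its log2 values were 9.38, 9.32 and 8.61 in Ptch1KO and 6.80, 6.70 and 6.40 in wildtype, replicates 1 to 3. Every tumour array stood above every wildtype array, with replicate 3 the lowest of the tumours. The difference was 2.47 ± 0.17 log2 units (SE, n = 3 per group), a 5.53-fold rise with limma adjusted p = 2.60e-07. Without Ptch1KO replicate 3 the difference was 2.71. SufuKO arrays read 7.15, 7.00 and 6.92, also all above wildtype, but by 0.39 ± 0.17, which did not pass (adjusted p = 0.128). It passed under 4 of 20 alternatives, among them the fit without Ptch1KO replicate 3 (adjusted p = 0.0153), and the adjusted p ran up to 0.358. Between the mutants Hsd11b2 was 4.22-fold higher in Ptch1KO (adjusted p = 8.72e-06).

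Hsd11b1, which regenerates the active steroid, moved the other way. Its values were 6.69, 6.61 and 6.76 in Ptch1KO and 7.99, 8.14 and 8.19 in wildtype. The 2 sets lay more than 1 log2 unit apart, and the fall was 2.68-fold (log2 difference -1.42 ± 0.11, SE, adjusted p = 5.15e-07). In SufuKO the arrays spread more, at 7.57, 7.71 and 8.05, and the last overlapped wildtype. The SufuKO difference was -0.33 ± 0.11 with limma adjusted p = 0.0441, and it did not pass under 10 of 20 alternatives, with adjusted p from 0.00214 to 0.207 over all of them. These were the fits without SufuKO replicate 1 or 2, Ptch1KO replicate 1 or 2, or wildtype replicate 2 or 3, and those with a sex covariate, with no filter, with median centring and with only the SufuKO and wildtype arrays. Replicate 3, the SufuKO array with high Xist, lay 0.06 log2 units below the wildtype mean. In Ptch1KO Hsd11b1 was 2.13-fold lower than in SufuKO (adjusted p = 2.82e-05). H6pd, which supplies the cofactor that lets Hsd11b1 run in the activating direction, was 1.30-fold lower in Ptch1KO than in wildtype (adjusted p = 0.000298) and 1.27-fold lower than in SufuKO.

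The 2 receptors differed in their order across the groups. Nr3c1, the glucocorticoid receptor, read 7.96, 7.98 and 8.18 in SufuKO, 8.07, 8.08 and 7.95 in Ptch1KO, and 8.27, 8.38 and 8.48 in wildtype. Both mutant groups lay below all wildtype arrays. The fall was 1.26-fold in SufuKO (adjusted p = 0.0102) and 1.27-fold in Ptch1KO (adjusted p = 0.00436), and in SufuKO it did not pass with sex as a covariate (-0.24, adjusted p = 0.0751). The mutants differed from each other by -0.003 log2 units (95% confidence interval -0.18 to 0.18).

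Nr3c2, the mineralocorticoid receptor, was dim throughout, at most about 1 log2 unit above the 25th percentile of the arrays (5.32 to 5.41). It read 6.24, 6.50 and 6.13 in Ptch1KO, 5.46, 5.77 and 5.72 in SufuKO, and 5.86, 5.82 and 5.82 in wildtype. The tumour arrays stood above all others. Nr3c2 was 1.37-fold higher in Ptch1KO than in wildtype (adjusted p = 0.00251) and 1.55-fold higher than in SufuKO (adjusted p = 0.000525), and its SufuKO difference from wildtype was -0.18 (95% confidence interval -0.40 to 0.04). That difference was -0.09 without SufuKO replicate 1, -0.10 with array weights and -0.04 with the sex covariate, and it passed under none of the 19 alternatives that tested it (adjusted p from 0.163 to 0.805).

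Fkbp5 encodes a co-chaperone that lowers hormone binding by the glucocorticoid receptor and is itself induced by that receptor. It read 7.91, 7.95 and 7.68 in Ptch1KO, 7.20, 7.42 and 7.53 in SufuKO, and 6.80, 6.76 and 6.78 in wildtype. The groups did not overlap, in the order Ptch1KO, SufuKO, wildtype. Fkbp5 rose 2.09-fold in Ptch1KO (log2 difference 1.06 ± 0.10, SE, adjusted p = 1.67e-06) and 1.52-fold in SufuKO (0.60 ± 0.10, adjusted p = 0.000700). It was 1.38-fold higher in Ptch1KO than in SufuKO (adjusted p = 0.00274), and all 3 calls held under each of the 20 alternatives.

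Sgk1, a serine/threonine kinase also induced by glucocorticoids and mineralocorticoids, went the opposite way. Its values were 7.44, 7.36 and 7.81 in Ptch1KO, 8.07, 8.21 and 8.31 in SufuKO, and 8.57, 8.40 and 8.60 in wildtype, again without overlap. The fall was 1.98-fold in Ptch1KO (-0.99 ± 0.11, SE, adjusted p = 1.19e-05). In SufuKO the difference was -0.32 ± 0.11 and just missed the threshold (adjusted p = 0.0512). It passed under 9 of the 20 alternatives, among them the fits without SufuKO replicate 3, Ptch1KO replicate 2 or Ptch1KO replicate 3, and the adjusted p ran from 0.00722 to 0.149. Between the mutants it was 1.58-fold lower in Ptch1KO (adjusted p = 0.000750).

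The Sgk1 gene is shown here because 1 of its 6 promoter windows holds the full palindrome that the glucocorticoid receptor is known to bind. RefSeq windows of 250 bases before to 50 after an annotated start (GRCm38.p6) were found for 7 of the 10 genes, and their 13 windows were searched on both strands. Hsd11b2, Thra and Nr3c1 are named without a window. The fifth Sgk1 window, chr10:21993640-21993939 on the plus strand, has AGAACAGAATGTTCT at positions -189 to -175 from the start, and a further half-site at -242 to -237. Capitals mark matches to the palindrome, which is AGAACA, any 3 bases and TGTTCT, and to its half-site AGAACA or the reverse TGTTCT, which overlaps the palindrome. The first Thrb window, chr14:17660710-17661009 on the plus strand, is given for the nuclear receptor half-site AGGTCA, in capitals.
Sgk1: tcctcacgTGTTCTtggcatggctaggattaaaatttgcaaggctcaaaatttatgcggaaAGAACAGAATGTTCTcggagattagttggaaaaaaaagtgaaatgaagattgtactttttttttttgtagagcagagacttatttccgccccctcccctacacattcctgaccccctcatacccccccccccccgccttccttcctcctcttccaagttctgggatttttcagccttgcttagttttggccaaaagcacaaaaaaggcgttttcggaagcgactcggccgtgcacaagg
Thrb: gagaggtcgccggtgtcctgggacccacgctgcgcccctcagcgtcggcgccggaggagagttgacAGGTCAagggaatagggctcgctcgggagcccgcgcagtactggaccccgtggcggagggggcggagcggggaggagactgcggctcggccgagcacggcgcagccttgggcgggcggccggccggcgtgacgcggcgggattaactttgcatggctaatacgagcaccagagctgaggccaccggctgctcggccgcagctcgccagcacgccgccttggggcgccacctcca
The palindrome was present in 3 of 32851 windows of all genes (0.00913%), the half-site AGAACA in 19%, and AGGTCA in 16.3%. The thyroid receptor direct repeat, AGGTCA, any 4 bases and AGGTCA (0.0152% of all windows), and the Gli motif GACCACCCA (0.253%) were in none of the 13 windows. None of the 5 motifs was found in the windows of Hsd11b1, Nr3c2, Fkbp5, Dio2 and Klf9. The other Sgk1 and Thrb windows held half-sites or no match. These letters describe the windows shown and say nothing of binding.

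**Figure D2:**
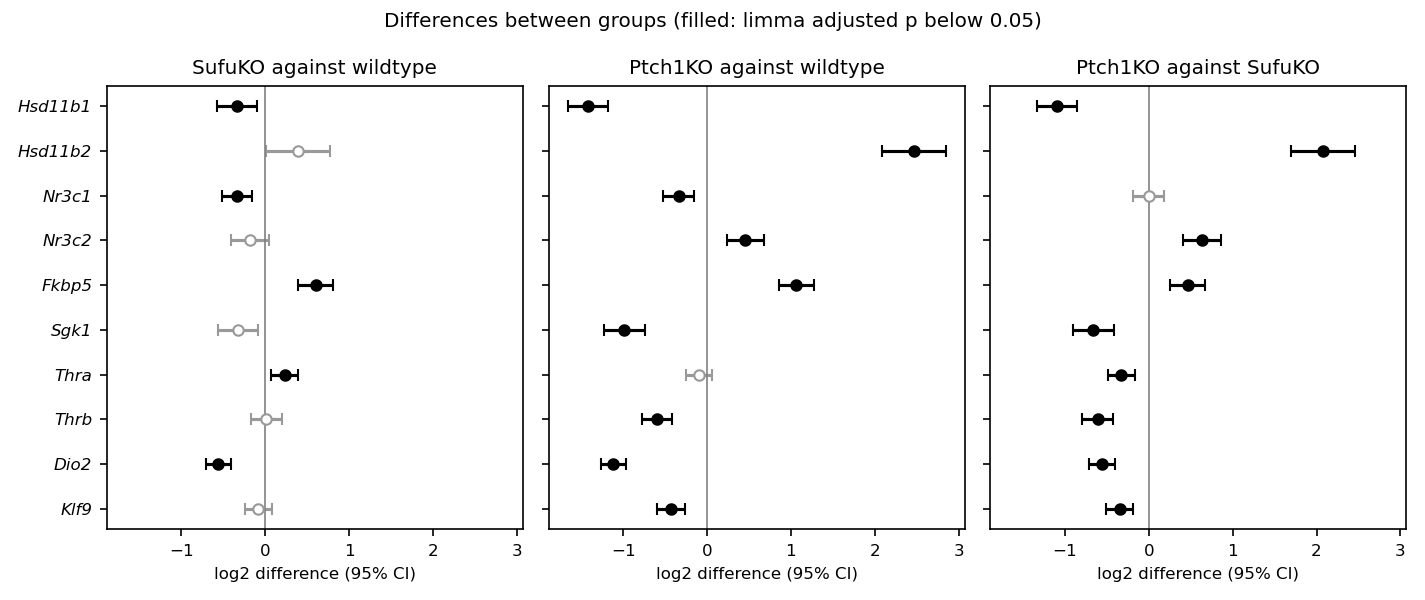
Log2 differences of the 10 genes (horizontal axis, with 95% confidence intervals) in the 3 comparisons named above the panels; filled points had a limma adjusted p below 0.05. Hsd11b2 stood at 2.47 and Hsd11b1 at -1.42 in Ptch1KO against wildtype. In that panel 9 of 10 points are filled, against 5 of 10 in SufuKO against wildtype. Over all genes tested 46.8% and 25.4% were called in these 2 comparisons.

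Other genes that glucocorticoids induce were read from a list of 21, of which 18 were tested, Fkbp5 and Sgk1 not among them. In Ptch1KO 1 was higher (Ddit4), 11 were lower and 6 did not pass, with a median log2 difference of -0.36. In SufuKO 1 was higher (Nfkbia), 10 were lower and 7 did not pass, with a median of -0.30. Over all genes tested 22.1% were higher and 24.7% lower in Ptch1KO, and 13% and 12.4% in SufuKO. Bcl6, a transcriptional repressor, was 2.31-fold lower in Ptch1KO (adjusted p = 4.71e-07) and 1.81-fold lower in SufuKO (adjusted p = 4.50e-05). Per1, a clock gene, was 1.76-fold lower in Ptch1KO (adjusted p = 5.91e-06) and 1.37-fold lower in SufuKO (adjusted p = 0.00213). Tsc22d3, the leucine zipper protein GILZ, was 1.59-fold lower in Ptch1KO (adjusted p = 0.000178) and 1.38-fold lower in SufuKO (adjusted p = 0.00584). Fkbp5 rose on arrays where most called members of this list fell. Errfi1, a feedback inhibitor of the EGF receptor, was 1.47-fold lower in Ptch1KO, and the metallothionein genes Mt1 and Mt2 were 1.72-fold and 1.93-fold lower in Ptch1KO and 1.75-fold and 2.16-fold lower in SufuKO. Between the mutants 3 of the 18 were lower in Ptch1KO, namely Errfi1 (1.25-fold), Per1 (1.29-fold) and Bcl6 (1.28-fold), and the other 15 did not pass. Of all genes tested 17.5% were lower there.

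Steroid export and the receptor's chaperones gave 9 tested genes of 12 listed. In SufuKO 1 was lower, Abcb1a, the efflux pump of the blood-brain barrier, by 1.41-fold (adjusted p = 0.000162). It was 1.51-fold lower in Ptch1KO (adjusted p = 6.69e-06), where Hspa8 and H6pd also fell and Ptges3 and Hsph1 rose. That made 2 higher and 3 lower of the 9 in Ptch1KO, beside 22.1% and 24.7% of all genes tested. In SufuKO 12.4% of all genes were lower. Ptges3, the Hsp90 co-chaperone p23, rose 1.44-fold in Ptch1KO against wildtype (adjusted p = 0.000179) and 1.22-fold against SufuKO. Fkbp4, the co-chaperone that competes with Fkbp5, differed by 0.12 log2 units in Ptch1KO (adjusted p = 0.174) and by 0.001 in SufuKO. Among 8 endothelial markers, 8 were lower in Ptch1KO and 5 in SufuKO; their summed linear signal ran from 1469 to 1535 in Ptch1KO, from 1529 to 1652 in SufuKO and from 1834 to 2042 in wildtype. Their part in the Abcb1a result was not tested.

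**Figure D3:**
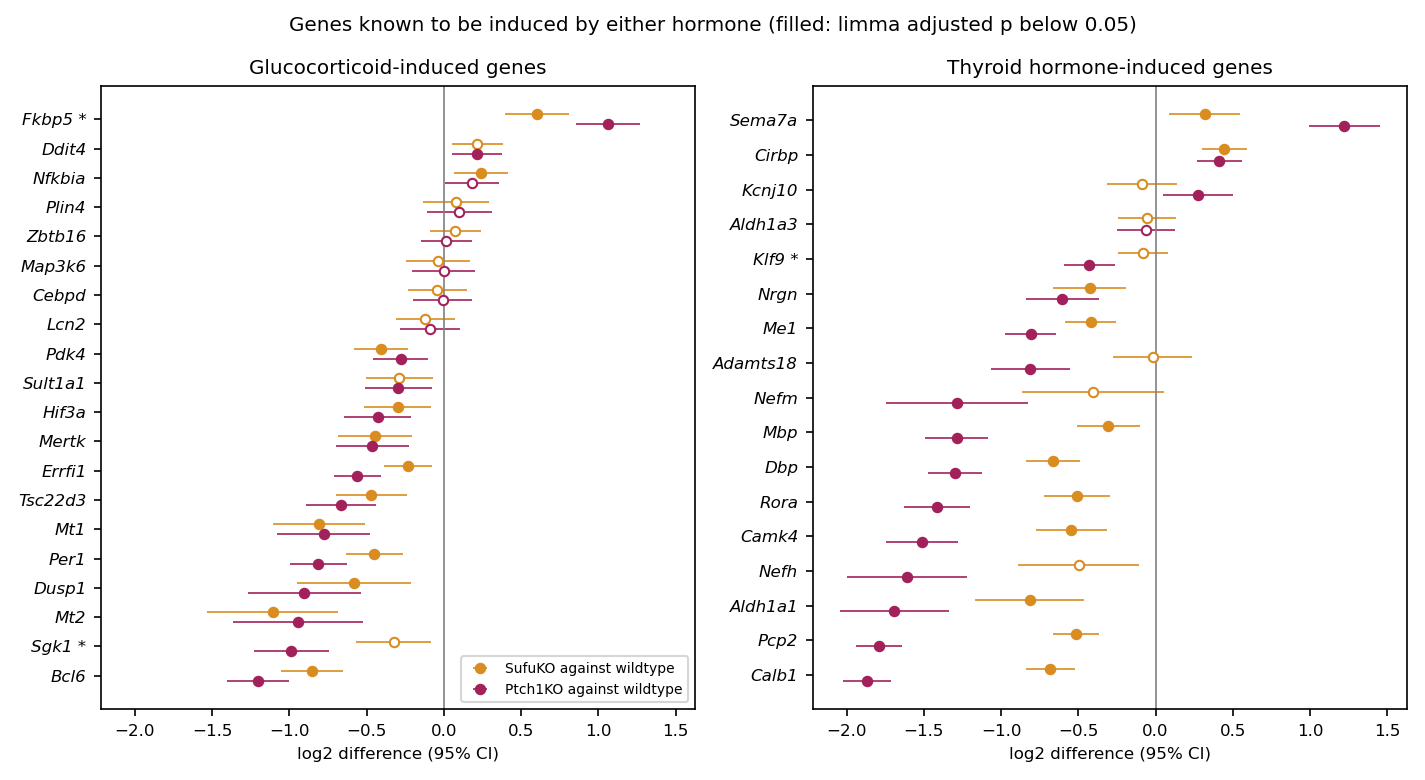
Log2 differences from wildtype in SufuKO and Ptch1KO (horizontal axes, with 95% confidence intervals). Genes listed as induced by glucocorticoids are on the left, and those listed as induced by thyroid hormone in brain on the right. Filled points had a limma adjusted p below 0.05 and asterisks mark Fkbp5, Sgk1 and Klf9. Fkbp5 stands farthest to the right in the left panel, at 1.06 in Ptch1KO, and Calb1 farthest to the left in the right panel, at -1.87.

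On the thyroid side, Dio2, the enzyme that makes active thyroid hormone and that astrocytes express in brain, fell in both mutant groups. It read 7.11, 7.03 and 7.15 in Ptch1KO, 7.56, 7.69 and 7.73 in SufuKO, and 8.26, 8.21 and 8.18 in wildtype, with no overlap between any of the groups. The fall was 2.17-fold in Ptch1KO (-1.12 ± 0.07, SE, adjusted p = 9.35e-08) and 1.47-fold in SufuKO (-0.56 ± 0.07, adjusted p = 0.000123). Between the mutants it was 1.47-fold lower in Ptch1KO (adjusted p = 9.56e-05). All 3 calls held under each of the 20 alternatives.

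Of 12 markers of Bergmann glia and astrocytes, 11 were lower in Ptch1KO and 11 in SufuKO, beside 24.7% and 12.4% of all genes tested. Their summed linear signal ran from 10310 to 13320 in Ptch1KO, from 14260 to 14370 in SufuKO and from 21630 to 22410 in wildtype. The brightest of the 12, Aldoc, weighs most in that sum. Its log2 means were 11.32 in Ptch1KO, 12.07 in SufuKO and 12.61 in wildtype. Between the mutants 5 of the 12 were lower in Ptch1KO and 7 did not pass, with a median log2 difference of -0.31. Of all genes tested 17.5% were lower there. In bulk tissue fewer cells of a type and less RNA per cell cannot be told apart, and the part of these markers in the Dio2 result was not tested.

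The other deiodinases gave no call. Dio3, which inactivates thyroid hormone, lay near the 25th percentile of the arrays, with values of 5.50, 5.26 and 5.51 in Ptch1KO, 5.34, 5.25 and 5.30 in SufuKO, and 5.33, 5.39 and 5.24 in wildtype. Its log2 difference was 0.10 in Ptch1KO (95% confidence interval -0.08 to 0.27) and -0.02 in SufuKO (-0.20 to 0.15). Among 8 tested genes of thyroid hormone transport and metabolism, Slc7a8, an amino acid transporter that carries thyroid hormones, was 2.91-fold lower in Ptch1KO (adjusted p = 6.03e-08) and 1.85-fold lower in SufuKO (adjusted p = 2.99e-05). Slc7a5, a related transporter, was 1.43-fold higher in Ptch1KO (adjusted p = 0.00213) and differed by -0.24 in SufuKO (adjusted p = 0.149). Slco1c1, the thyroxine carrier of brain endothelium and astrocytes, differed by -0.09 in Ptch1KO and -0.11 in SufuKO, and neither passed.

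Thra, the predominant thyroid hormone receptor of the brain, was higher in SufuKO than in the other groups. It read 11.18, 11.17 and 11.23 in SufuKO, 10.80, 10.80 and 11.01 in Ptch1KO, and 11.00, 10.98 and 10.92 in wildtype. The SufuKO arrays stood above the rest, and Ptch1KO overlapped wildtype. The rise in SufuKO was 1.17-fold (limma adjusted p = 0.0342). It did not pass with sex as a covariate (0.21, adjusted p = 0.106), and leaving out any 1 SufuKO or wildtype array also ended it (adjusted p from 0.0603 to 0.109). Thra was 1.25-fold lower in Ptch1KO than in SufuKO (adjusted p = 0.00433), and its difference between Ptch1KO and wildtype was -0.10 (95% confidence interval -0.25 to 0.06).

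Thrb, the second receptor, whose window is printed above, was lower in the tumours. Its values were 5.98, 5.92 and 6.17 in Ptch1KO, 6.65, 6.60 and 6.64 in SufuKO, and 6.48, 6.70 and 6.67 in wildtype. The tumour values were dim, beside array 25th percentiles of 5.32 to 5.41. All tumour arrays lay below the others, and SufuKO lay within the range of wildtype. Thrb fell 1.51-fold in Ptch1KO against wildtype (adjusted p = 7.13e-05) and was 1.53-fold lower than in SufuKO (adjusted p = 0.000188). The SufuKO difference from wildtype was 0.01 (95% confidence interval -0.17 to 0.20).

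Among 10 tested receptor partners and coregulators, 3 were higher and 1 lower in Ptch1KO, beside 22.1% and 24.7% of all genes tested. Rxra, a retinoid X receptor that pairs with thyroid receptors, was 1.61-fold higher (adjusted p = 0.000166) and Med1, a Mediator subunit, 1.25-fold higher, with Hdac3 the remaining rise. Hr, the corepressor hairless and itself induced by thyroid hormone, was 1.37-fold lower in Ptch1KO (adjusted p = 0.000347). In SufuKO 1 of the 10 was higher, Rxrb (1.18-fold, adjusted p = 0.0153), and Hr differed by -0.15 (adjusted p = 0.205). Of all genes tested 13% were higher and 12.4% lower there. Between the mutants Rxra was 1.49-fold higher and Hr and Ncoa3 1.24-fold and 1.17-fold lower in Ptch1KO.

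Klf9 fell in the tumours and not detectably in SufuKO. It read 9.97, 9.81 and 10.04 in Ptch1KO, 10.28, 10.26 and 10.32 in SufuKO, and 10.46, 10.34 and 10.31 in wildtype. The tumour arrays lay below all others, while SufuKO overlapped wildtype. The fall was 1.35-fold against wildtype (adjusted p = 0.000433) and 1.27-fold against SufuKO (adjusted p = 0.00378), and the SufuKO difference from wildtype was -0.08 (95% confidence interval -0.25 to 0.08).

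Of 16 tested genes listed as induced by thyroid hormone in brain, 12 were lower, 3 higher and 1 did not pass in Ptch1KO. Their median log2 difference was -1.29, and over all genes tested 24.7% were lower and 22.1% higher. In SufuKO 9 were lower, 2 higher and 5 did not pass, with a median of -0.42, beside 12.4% and 13% of all genes. Dbp, a clock-controlled transcription factor, was 2.46-fold lower in Ptch1KO (adjusted p = 9.53e-08) and 1.59-fold lower in SufuKO (adjusted p = 0.000104). Calb1 and Pcp2, both Purkinje cell genes, were 3.65-fold and 3.46-fold lower in Ptch1KO and 1.60-fold and 1.43-fold lower in SufuKO. Mbp, a myelin protein of oligodendrocytes, was 2.44-fold lower in Ptch1KO and 1.24-fold lower in SufuKO. The genes that were higher in Ptch1KO were Sema7a, an adhesion and guidance protein (2.33-fold), Cirbp, a cold-inducible RNA-binding protein (1.33-fold), and Kcnj10, a glial potassium channel (1.21-fold). Sema7a (1.25-fold) and Cirbp (1.36-fold) were the ones higher in SufuKO. How the hormone moves each listed gene was not checked here. The rise of Cirbp is therefore not read as running against the list. The falls and the median are likewise not read as a hormone effect. Between the mutants 11 of the 16 were lower and 2 higher in Ptch1KO, beside 17.5% and 12.2% of all genes.

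Cell type markers also differed between the groups. Their counts stand beside 22.1% of all genes higher and 24.7% lower in Ptch1KO, and 13% and 12.4% in SufuKO. All 7 tested Purkinje cell markers and all 9 oligodendrocyte markers were lower in each mutant group than in wildtype. Pcp2 and Calb1 are in both the Purkinje list and the thyroid hormone-induced list, so these lists are not independent; the other 5 Purkinje markers were lower in each mutant group as well. The summed signal of all 7 Purkinje markers ran from 2746 to 2959 in Ptch1KO, from 6742 to 7353 in SufuKO and from 10810 to 11710 in wildtype. For the oligodendrocyte markers the ranges were 2555 to 3357, 6763 to 9313 and 11880 to 14330 in the same order of groups, and for 10 mature granule neuron markers 5254 to 8548, 14500 to 15360 and 23990 to 26940. Granule neuron progenitor markers ran the other way, from 9038 to 11190 in Ptch1KO, 6354 to 6579 in SufuKO and 2734 to 3089 in wildtype. All 9 of these were higher in Ptch1KO than in wildtype, and in SufuKO 6 were higher and 1, Hhip, lower. Gli1 (-0.12, limma adjusted p = 0.537) and Boc (0.13, adjusted p = 0.370) did not pass in SufuKO. Nor did Ptch1, which is not on the list (-0.06, adjusted p = 0.607). The 9 proliferation markers were higher in both mutant groups. Of 7 choroid plexus markers 3 were higher in each mutant group, with sums of 1862 to 3200 in Ptch1KO, 1038 to 4875 in SufuKO and 858.8 to 2071 in wildtype. These sums overlap between the groups. In SufuKO the 3 were Kl (1.28-fold), Sostdc1 (1.23-fold) and Otx2 (1.62-fold). Kl and Sostdc1 were dim, with SufuKO means of 6.11 and 5.88 beside array 25th percentiles of 5.32 to 5.41. Sostdc1 also overlapped wildtype (limma adjusted p = 0.0497). Otx2 averaged 9.30 in Ptch1KO, 9.11 in SufuKO and 8.42 in wildtype, the group order of the progenitor markers. Ttr, with log2 values from 7.83 to 11.88 in SufuKO and from 7.79 to 10.4 in wildtype, passed in no comparison. Of 8 microglial markers 4 were higher in Ptch1KO and 1 in SufuKO, of 8 meningeal markers 4 were lower and 1 higher in Ptch1KO and 6 lower in SufuKO, and of 3 red blood cell markers 1 was lower in Ptch1KO. The part of these markers in the results on Hsd11b2, Klf9 and the hormone-induced genes was not tested.

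**Figure D4:**
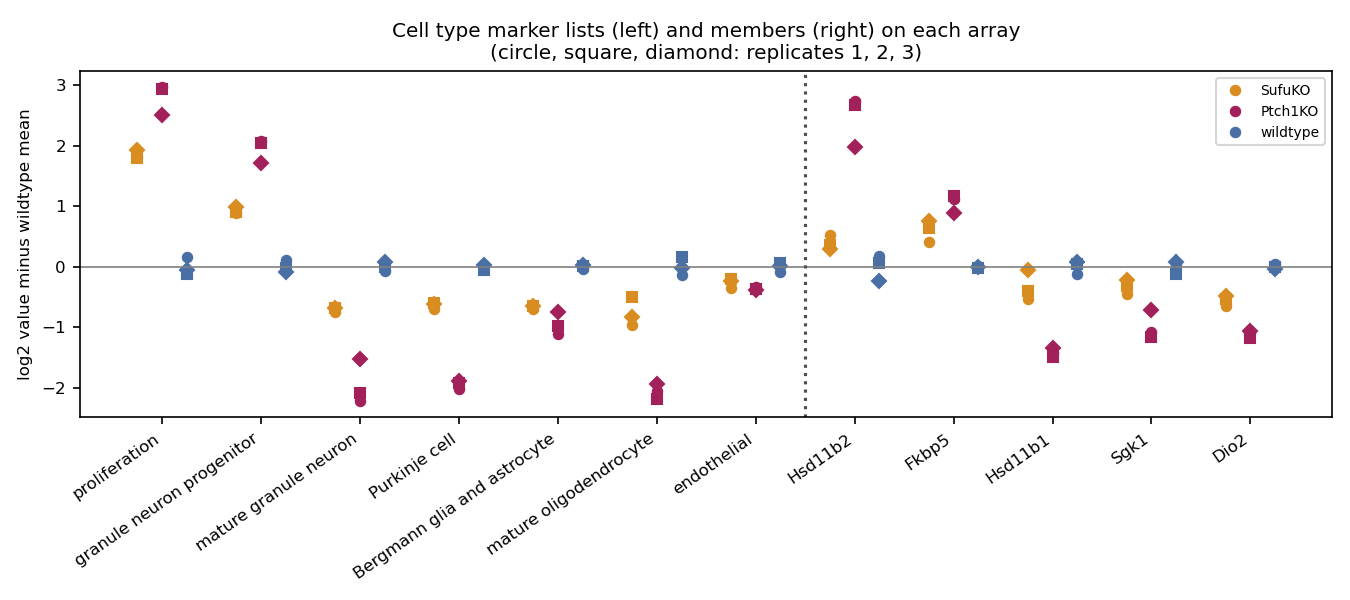
Mean log2 value of 7 cell type marker lists (left of the dotted line) and log2 value of 5 of the genes (right), as differences from the wildtype mean (vertical axis), on each array of SufuKO, Ptch1KO and wildtype. Hsd11b2 and the progenitor and proliferation lists are highest in Ptch1KO, and Ptch1KO replicate 3 (diamond) is the lowest tumour array in each of them.

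The tumour arrays were not alike. For 9 of the 10 genes Ptch1KO replicate 3 was the tumour array nearest to the wildtype mean, Nr3c1 being the exception, and over all tested genes this held for 52.4%. The SufuKO mean lay between the Ptch1KO and wildtype means for 7 of the 10, beside 59.7% of all tested genes. The genes outside that order were Nr3c2, Thra and Thrb. Without Ptch1KO replicate 3 the 9 calls against wildtype all remained.

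Genes with the most similar pattern were sought for the 3 members with the widest range of group means, by the root mean square difference over the 9 arrays after each gene's mean was removed. Nearest to Hsd11b2 were Smoc1 (0.16 log2 units), Lrig3 (0.28) and Rbp4 (0.30). Nearest to Hsd11b1 were Fgf12 (0.11), Dhrs11 (0.13) and Csdc2 (0.13). Nearest to Dio2 were Mapre2 (0.048), Arap2 (0.050) and Trim9 (0.062). Smoc1 averaged 9.01 in Ptch1KO, 7.05 in SufuKO and 6.71 in wildtype.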

How the data were processed

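The authors deposited log2 expression values of 35556 probe sets for 9 arrays, a scale read from the range of the numbers. Per the labels' protocols the arrays were Affymetrix Mouse Gene ST 1.0; how they were background-corrected, normalized and summarised is not given in the sources used. Probe sets were named from the array annotation, with identifiers matched to RefSeq (GRCm38.p6): 21789 had 1 gene symbol, 1621 several and 12146 were not listed. For a gene with several, the brightest over 9 arrays was used. A gene was tested if 3 or more arrays had it above their own 25th percentile, using limma 3.58.1 (R 4.3.3) with 1 mean per group over all 9 arrays. The 2-sided p-values were adjusted by Benjamini-Hochberg over 16323 genes, with a threshold of 0.05. Every adjusted p in the text comes from this limma fit or a named alternative. Folds are antilogs of log2 differences, and SE is limma's moderated error. The limma fit was tested on simulated data, for SufuKO against wildtype.

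The genes and lists were chosen with earlier results of these data known, so their counts are not independent evidence. Further genes were named by rule, as the 3 called genes of a list with the smallest p in a comparison, beside Dio3, Slco1c1, Hr, Tsc22d3 and Per1; others are named in counts of 5 or fewer, or as background to them, chosen after their values were seen. The promoter motifs were chosen with these results known. Groups came from the labels, and no column or array was left out.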

Additional observations from a re-analysis of the deposited data

How the results depend on the processing

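Across 20 alternatives, every call on the 10 genes in Ptch1KO against wildtype and in Ptch1KO against SufuKO stayed on its side of the threshold wherever the gene was tested; Nr3c2 and Thrb were not tested with a filter at the array median. In SufuKO against wildtype, calls were lost in 18 and gained in 13 of 198 combinations of gene and alternative, for Hsd11b1, Nr3c1, Thra, Sgk1 and Hsd11b2. With a sex covariate 1 gene was called higher and 1 lower there, 2 in all; the cause was not tested. Leaving out 1 array at a time gave between 1 and 3 higher and between 3 and 7 in all; the counts of 3 came without SufuKO replicates 1 or 2 or wildtype replicates 2 or 3.

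The replicate numbers are shared between groups, and the labels do not say what a number marks. Correlations of same-numbered arrays' deviations were all positive in SufuKO against wildtype (0.0901, 0.085 and 0.352), with 2 of the 3 under 0.1, and ran from -0.114 to 0.124 in Ptch1KO against wildtype and from -0.313 to 0.0261 between the mutants, so the numbers were not taken as pairs. In SufuKO against wildtype 4 of 6 arrays correlated best with their own number, in Ptch1KO against wildtype 2, and between the mutants 1. With a replicate block, 3989 genes were called in SufuKO against wildtype (4150 without it), 7520 in Ptch1KO against wildtype (7644) and 4626 between the mutants (4846), and Hsd11b2 (adjusted p = 0.0262) and Sgk1 (adjusted p = 0.0224) passed by limma in SufuKO.

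Counts for the small lists also moved, and the cause was not tested. The steroid supply and chaperone list in SufuKO gave 2 calls with a filter at the array median, an intensity-trended prior, quantile normalization, the sex covariate and array weights. Leaving out 1 array gave 1 to 2 there, 3 to 5 in Ptch1KO against wildtype and 1 to 3 between the mutants. The coregulator list in SufuKO gave 2 with the median filter, 3 with array weights and 0 to 2 with 1 array left out, and between the mutants 5 with array weights. The transport list in SufuKO gave 3 with array weights and 1 to 2 with 1 array left out.

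Differences near 0 changed sign without passing. Nr3c1 between the mutants was 0.00379 with quantile normalization and 0.0652 with array weights, and from -0.0439 to 0.0685 with 1 array left out. Thrb in SufuKO was -0.0321 with the sex covariate and from -0.0559 to 0.0583 with 1 array left out. Slco1c1 between the mutants ran from -0.0434 to 0.108 and Dio3 in SufuKO from -0.0634 to 0.0103 with 1 array left out. Array weights raised the genes called in SufuKO to 6122 and between the mutants to 6886.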
